A study of Capra hircus with 29 samples.

Results

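The mitochondrial genome is a small circle of DNA, present in many copies per cell, whose protein-coding genes all encode subunits of the respiratory chain or of the ATP synthase. It is transcribed as long RNAs that are cut at the transfer RNAs between most genes, and the messenger RNAs then receive poly(A) tails inside the organelle. The oocyte passes its mitochondria to the embryo and relies on them for ATP during growth and maturation. Described here are 10 of these transcripts in goat oocytes, out of 21343 genes in the table. They were taken as the rows with the symbols ND1, ND2, ND3, ND4, ND5, COX1, COX2, COX3, ATP6 and CYTB among the first 60 rows of the table, where the genes of the mitochondrial genome stand. The set was chosen by name and place with FPKM values of these samples in view, in particular the medium follicle difference in ND4. Levels are therefore a description, and tests on the same contrast are not independent of that choice. They code for 5 subunits of complex I, which takes electrons from NADH (ND1 to ND5), for the cytochrome b of complex III (CYTB), for 3 subunits of complex IV, the cytochrome c oxidase (COX1 to COX3), and for a subunit of the proton channel of the ATP synthase (ATP6). The 3 other protein-coding genes of that genome, ATP8, ND4L and ND6, were also in the table and are given where they bear on the 10.

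The oocytes came from Ji'Ning grey goats of a high fertility population, with more than 3 kids per birth, and a low fertility population, with fewer than 2, as the labels give it. The study's text differs from the labels on whether the limits themselves belong to a population. Oocytes of large, medium and small follicles gave the groups HLO, HMO and HSO of the high fertility goats and LLO, LMO and LSO of the low fertility goats. Each group had 5 samples except HSO, which had 4. A sample held 2 to 3 oocytes, which the study describes as divided from oocytes pooled by follicle size, and which goats gave a sample is not stated. The tests below therefore measure the spread between such samples, which may be technical. Libraries were made from RNA selected with oligo(dT), and levels are FPKM, fragments scaled to the length of the transcript and to the total of mapped fragments. The table of FPKM holds no read counts, and the study's supplementary count and mapping tables were not used here, so no depth or counting interval is given. Because the 10 genes lie on the same genome and are cut from shared transcripts, they are not independent of each other, and the counts of genes given below describe them without replicating a condition. The study asked how oocytes of the 2 populations differ as follicles grow.

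The oocyte label was checked against marker genes. The egg coat gene ZP3 (57.5 to 5318 FPKM) and the growth factor genes of the oocyte GDF9 and BMP15 were present in all 29 samples. Of the 10 oocyte markers, 7 were above 0.5 FPKM in all samples, whereas FIGLA was so in 28, DAZL in 21 and NLRP5 in 5, with at most 0.615 FPKM of NLRP5. Of 10 granulosa cell markers 9 were in the table: AMH and NR5A1 were listed at 0 in all samples, and the FSH receptor FSHR did not exceed 0.283 FPKM, but INHBA, a subunit of inhibin and activin, was above 0.5 FPKM in 10 samples (up to 5.21) and FST, the activin antagonist follistatin, in 5 (up to 1.54). The summed level of the granulosa list was 0.169 to 7.82 FPKM per sample. Of 6 leukocyte markers in the table, none exceeded 0.646 FPKM, and the single erythrocyte marker of 4 that was in the table did not exceed 0.464. The sum of all FPKM was 222697 in LMO replicate 2 and at least 347806 in the other samples.

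The mitochondrial transcripts were among the most variable of the genes tested. On the log2(FPKM + 1) scale the standard deviation over the 29 samples was 2.18 for ND1 and 2.37 for ATP6, against a median of 0.56 over the 9692 genes tested. For ND1 that spread was greater than in 99.7% of these genes and for ATP6 greater than in 99.8%. The least variable of the 10, ND3 (1.19), still varied more than 92.4% of genes. The 10 also had higher mean FPKM than most of these genes, from 70.7% of them for ND5 to 97.5% for COX3. The spread was not compared with genes of like level. Together the 10 made up 0.00198% of the summed FPKM in LLO replicate 4, the lowest sample, and 1.03% in HSO replicate 3, the highest, with a median of 0.0938%. LLO replicate 4 was the lowest of all samples for each of the 10, and HSO replicate 3 was the highest for 9 of them, with COX1 the exception. Fewer mitochondria or genome copies and less RNA per copy cannot be told apart in these samples.

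**Figure D1:**
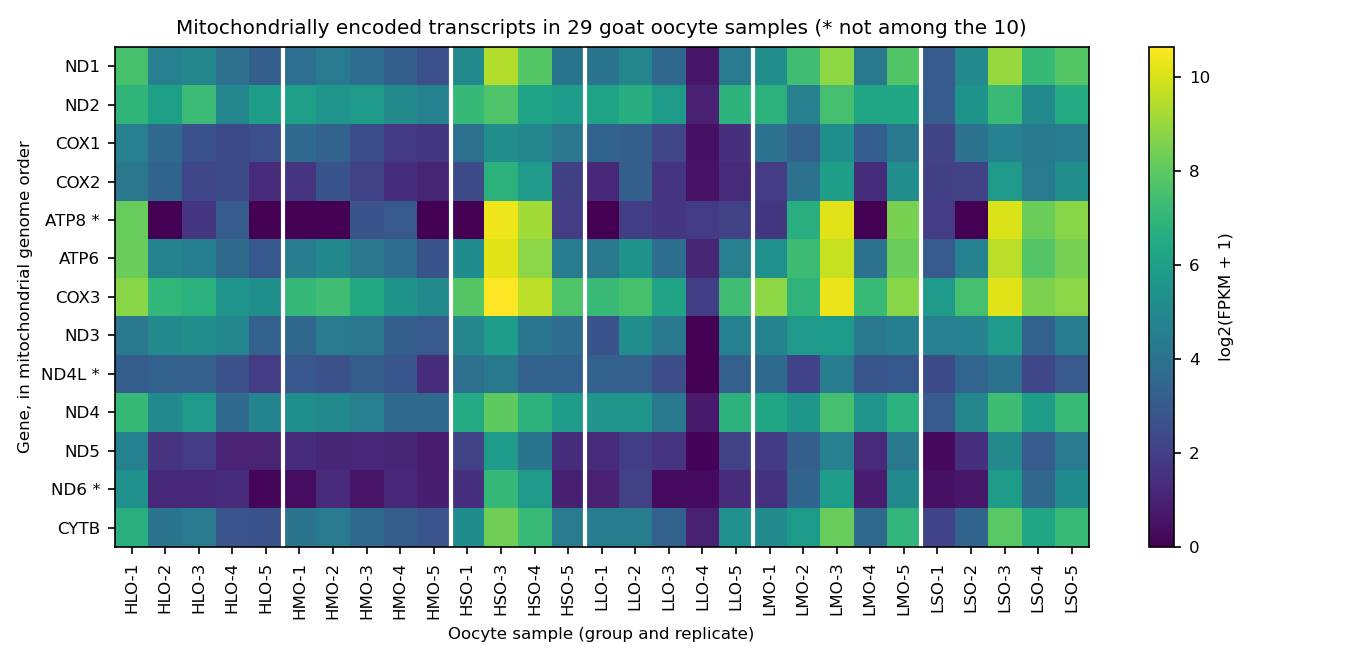
Level of the 13 protein-coding genes of the mitochondrial genome (y axis, genome order) in each of the 29 oocyte samples (x axis, by group), as log2(FPKM + 1) in colour. Asterisks mark ATP8, ND4L and ND6. HLO replicate 1, HSO replicates 3 and 4, LMO replicates 2, 3 and 5 and LSO replicates 3, 4 and 5 stand out for ND1, COX2, ATP8, ATP6, ND5, ND6 and CYTB, and LLO replicate 4 is the darkest column for the 10.

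ND1, a membrane subunit of complex I, fell into separate ranges. It was 187, 23.6, 28.5, 14.4 and 8.31 FPKM in HLO replicates 1 to 5, and 13.8, 19.7, 13.03, 8.25 and 5.08 in HMO. In HSO it was 31.9, 684, 223 and 16.8 in replicates 1, 3, 4 and 5. HMO was uniformly low, whereas a single HLO sample and HSO replicates 3 and 4 stood far above the rest of their groups. In LLO the values of replicates 1 to 5 were 16.0, 28.4, 10.7, 0.552 and 19.3, in LMO they were 37.0, 166, 458, 18.4 and 215, and in LSO they were 7.38, 31.8, 501, 138 and 229. No sample lay between 37.0 and 138 FPKM. Above that gap were 9 samples: 1 of 5 in HLO, none of HMO and LLO, 2 of 4 in HSO, and 3 of 5 in both LMO and LSO. Large follicles contributed 1 of their 10 samples, medium follicles 3 of 10 and small follicles 5 of 9. The high fertility population contributed 3 of 14 samples and the low 6 of 15. The gap was found by looking at the values, and it is used here only to describe them.

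The same 9 samples were the highest 9 for 7 of the 13 mitochondrial genes. These were ND1, which is counted by construction because it picked the samples, and COX2, ATP8, ATP6, ND5, ND6 and CYTB. ATP6 was 155 to 1130 FPKM in them and 1.24 to 42.9 in the other 20 samples. CYTB was 53.8 to 322 against 0.991 to 40.9, COX2 was 14.8 to 111 against 0.434 to 9.85, and ND5 was 7.51 to 55.7 against 0.0853 to 3.34. ATP8, whose gene overlaps ATP6, had the widest gap, with 99.0 to 1322 FPKM against 0 to 7.58 and a listed value of 0 in 9 of the 20. ND6, which is encoded on the opposite strand to the others, was 9.77 to 133 against 0.115 to 3.17.

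The other genes followed this division in part or not at all. COX1 and COX3 had 8 of these 9 among their own highest 9 samples and ND4 had 7, whereas ND2, ND3 and ND4L had 4. ND2 was 23.6 to 210 FPKM in the 9 samples and 0.967 to 151 in the other 20, of which 18 reached the lowest value of the 9. The corresponding number was 16 of 20 for ND3, 11 for COX3, 8 for COX1 and 5 for ND4. ND2, the complex I subunit whose gene follows ND1 on the same genome, was 123, 65.7, 151, 28.3 and 61.3 FPKM in HLO replicates 1 to 5, so that HLO replicate 3 lay above replicate 1, the sample with the high ND1. In LMO it was 114, 23.6, 177, 77.5 and 81.3, and replicate 2, which had 166 FPKM of ND1, was the lowest. The ratio of ND1 to ND2 was 1.52 to 7.003 in the 9 samples and 0.136 to 1.003 in the other 20. Because the 9 samples were picked by their ND1, a high ratio in them is partly built in.

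COX3, a core subunit of complex IV, was the most abundant of the 10 per kilobase in 26 of 29 samples. The exceptions were HLO replicates 3 and 5, where ND2 was higher, and LMO replicate 2, where ND1 was. COX3 was 430, 130, 109, 46.3 and 38.5 FPKM in HLO, 135, 162, 86.5, 44.2 and 31.7 in HMO, and 223, 1585, 770 and 207 in HSO. In LLO it was 148, 184, 72.5, 2.95 and 165, in LMO 450, 119, 1262, 140 and 424, and in LSO 51.6, 178, 1134, 365 and 443. The 4 HSO samples spanned a wide range for COX3, from 207 to 1585 FPKM. The ratio of ATP6 to its neighbour COX3 was 0.572 to 1.31 in the 9 samples with high ND1 and 0.0877 to 0.419 in the other 20, again without overlap. Other ratios overlapped, with 0.741 to 1.58 against 0.196 to 1.40 for CYTB to ND4. COX2 to COX1 was 0.735 to 3.04 against 0.136 to 1.11. For ND5 to ND4 the ranges, 0.1217 to 0.2206 and 0.0281 to 0.1206, nearly met. ATP6, CYTB, COX2 and ND5 each had these 9 as their own highest 9 samples, so high ratios in them are partly built in. ATP8 and ATP6, ATP6 and COX3, ND4L and ND4, and ND5 and ND6 overlap in the RefSeq goat annotation (ARS 1.2), and how reads of the overlaps and of the 2 strands were divided is not given in the sources used here, so levels of these genes are uncertain to that extent. The rule of keeping reads with a unique match may also have removed reads shared with nuclear copies of mitochondrial DNA, which was not tested.

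**Figure D2:**
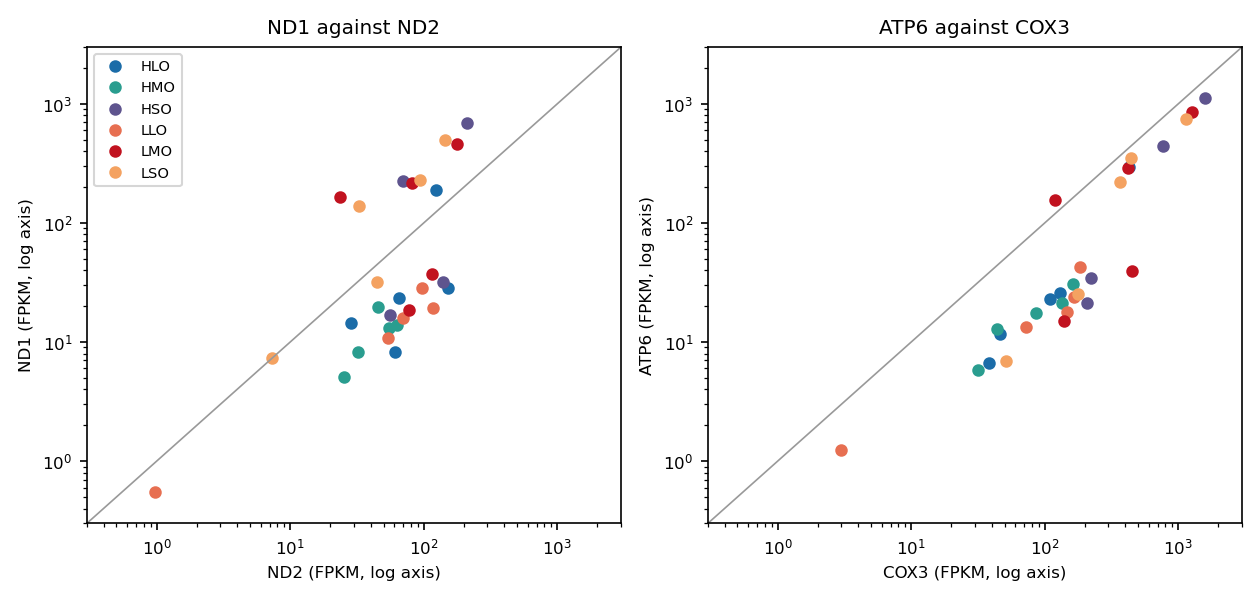
Each point is a sample, coloured by group, on log axes in FPKM: ND1 against ND2 on the left and ATP6 against COX3 on the right, with the line of equal level in grey. On the left 9 points lie at an ND1 to ND2 ratio of 1.52 or more and the others at 1.003 or less. On the right the same 9 samples lie at an ATP6 to COX3 ratio of 0.572 or more. ND1 and ATP6 were both highest in these 9, so the high ratios are partly built in.

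The 10 transcripts moved together within each of the 2 ranges. On the log2 scale, Pearson's r over the 20 samples with low ND1 had a median of 0.78 over the 45 pairs of the 10 genes, from 0.36 for COX2 and ND4 to 0.95 for ND1 and ATP6. Over the 9 samples with high ND1 it had a median of 0.87, from 0.17 for COX1 and ND3 to 0.99 for ATP6 and CYTB. These values share libraries and the scaling to the library total, LLO replicate 4 lies far below the others of the first set, and they are a description only.

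**Figure D3:**
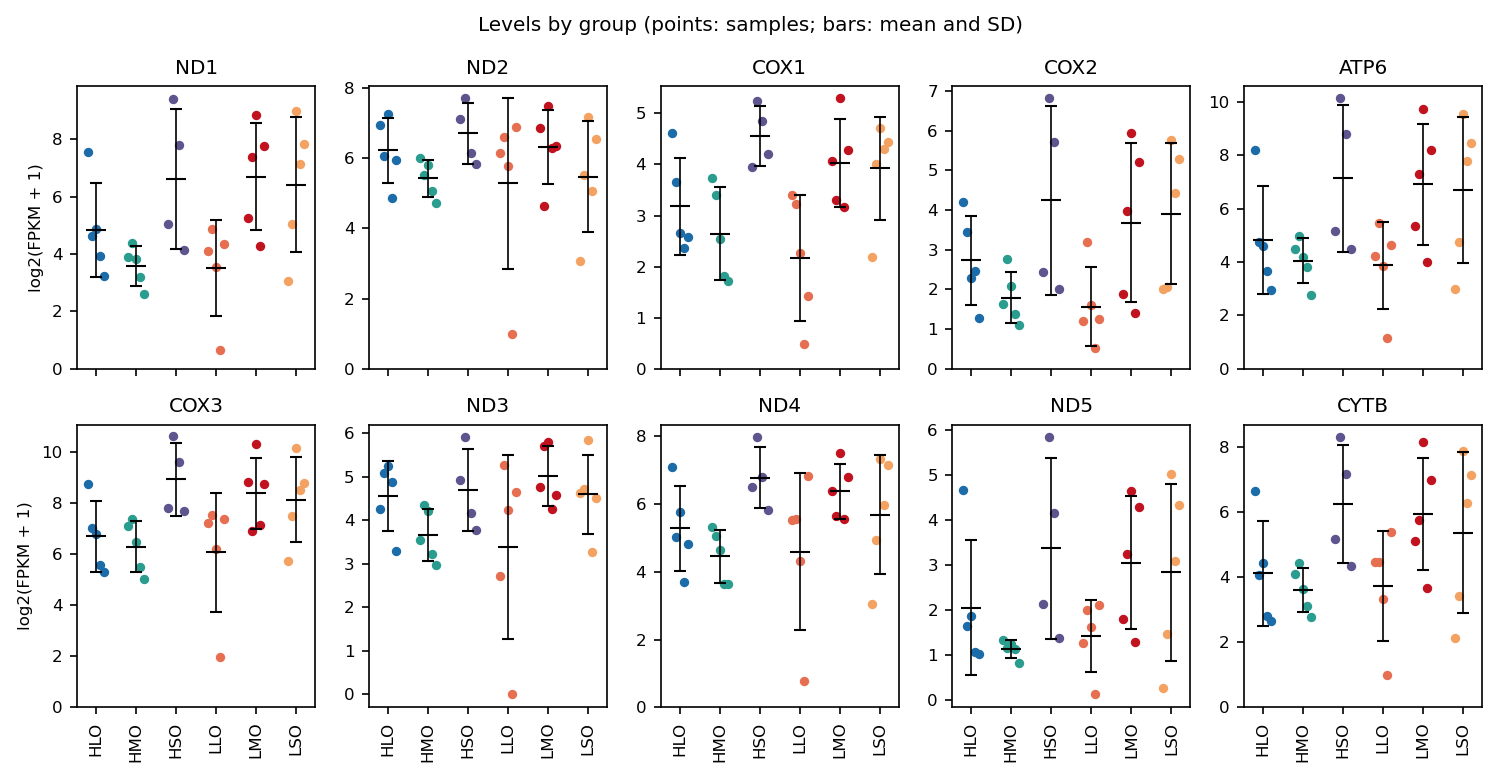
Level of each of the 10 transcripts in the 6 groups, as log2(FPKM + 1) on the y axis, with a point for each sample and bars for the mean and SD. HMO is narrow for ND1, ATP6 and ND5 but not for COX1, and in HSO, LMO and LSO ND1 and ATP6 split into a high and a low set of samples.

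Ordered by mean FPKM, HSO was the highest group for 9 of the 10 transcripts and LMO for ND3, while HMO was the lowest for 8 and LLO for COX1 and COX2. ND1, for example, averaged 239 ± 311 FPKM (SD, n = 4) in HSO, 182 ± 199 (n = 5) in LSO, 179 ± 177 in LMO, 52.4 ± 75.8 in HLO, 15.0 ± 10.3 in LLO and 12.0 ± 5.62 in HMO. The order depended on the scale. By mean log2 level LLO was the lowest group for ND1, ND2, COX1, COX2, ATP6, COX3 and ND3, and HMO for ND4, ND5 and CYTB. LMO was then above HSO for ND1 (6.70 against 6.61). By median the highest group was LMO for ND1 and HLO for ND3, and LSO was the lowest for ND2. In the order by mean log2 level, 3 of 50 steps between neighbouring groups were larger than their pooled SD. These were all HLO above HMO, for ND1, COX2 and ND3. The other neighbours did not differ beyond that spread.

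In medium follicles the 10 transcripts had lower mean levels in the high than in the low fertility population, in differences that did not pass the adjusted test. The log2 fold change of HMO against LMO was below 0 for each of them, with a median of -1.92, against a median of -0.07 over the 8390 genes tested. By limma none passed an adjusted p of 0.05 in the main fit, and the last section gives a replicate block under which some did. Before adjustment 9 of 10 had a p under 0.05, and 3.58% of all genes tested did so with a higher level in LMO (8.67% in either direction), while 0.0715% of all genes passed after adjustment. The medium follicle difference in ND4 is known from earlier results of these data, so its values are given as a description. Of the other 9 transcripts, 8 passed before adjustment. That count is not independent of ND4, since these genes lie on the same genome and are cut from shared transcripts.

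ND1 was -3.12 ± 0.76 (log2 fold change ± SE) in HMO against LMO, with a limma adjusted p of 0.162, the smallest of the 10. The 5 HMO samples reached at most 19.7 FPKM, and 4 of 5 LMO samples were above that. ATP6, the proton channel subunit, was 21.2, 30.6, 17.4, 12.98 and 5.83 FPKM in HMO and 39.4, 155, 848, 15.0 and 289 in LMO. Its difference was -2.86 ± 0.90 with a limma adjusted p of 0.307, and LMO replicate 4 lay within the HMO range. CYTB, the only subunit of complex III that this genome encodes, differed by -2.33 ± 0.71 (limma adjusted p = 0.281) and COX3 by -2.10 ± 0.66 (limma adjusted p = 0.313). ND5 (-1.91), COX2 (-1.90), COX1 (-1.38) and ND3 (-1.35) also passed before adjustment, whereas ND2 (-0.90 ± 0.50) did not. ND4 was 38.7, 32.1, 23.9, 11.5 and 11.5 FPKM in HMO and 83.0, 48.9, 180, 46.1 and 111 in LMO. It was the only transcript of the 10 whose samples did not overlap between the groups, as was so for 0.858% of all genes tested with LMO higher.

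Other measures of these samples were as follows. The summed granulosa markers were 0.408 to 1.09 FPKM in HMO and 0.475 to 7.82 in LMO, the highest in LMO replicate 5. LMO replicates 1, 2 and 3, at 0.475, 0.786 and 0.944, lay within the HMO range, whereas replicate 4, at 1.67, lay above it, as did replicate 5. AMH and NR5A1 were listed at 0 in all 29 samples and so cannot tell the groups apart. The part of granulosa markers in the difference was not tested. Without LMO replicate 2, whose FPKM summed to the least, the median of the 10 was -1.99 and again 9 passed before adjustment. With each sample left out in turn the number was 7 to 9.

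In large follicles the differences were within the spread between samples. The log2 fold change of HLO against LLO was above 0 for all 10 transcripts, with a median of 0.95 against -0.09 over the 8328 genes tested. By limma none passed after adjustment, as for 0% of all genes, and none before it, against 4.14% of all genes. COX2 had 17.4, 9.85, 3.84, 4.51 and 1.44 FPKM in HLO and 1.31, 8.18, 2.07, 0.434 and 1.38 in LLO, a difference of 1.17 ± 0.59. ND1 differed by 1.34 ± 0.89, and the ranges of the pair overlapped, as they did for all 10 and for all but 0.432% of genes. For 5 of the 10 transcripts the sign rested on a single sample. Without LLO replicate 4 the median was 0.29, and ND2, COX3, ND4 and CYTB were at -0.13, -0.39, -0.27 and -0.29. Without HLO replicate 1, the only sample of these groups with ND1 above the gap, the median was 0.44, with ND5 at -0.024 and CYTB at -0.24. Without HLO replicate 5 or LLO replicate 2, 1 transcript passed before adjustment.

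In small follicles HSO and LSO overlapped for all 10, whereas 2.05% of all genes did not overlap. The median log2 fold change was 0.58, against -0.01 over the 8376 genes tested, and by limma none of the 10 passed before or after adjustment, against 4.41% and 0.0119% of all genes. ND2 had the largest difference, 1.23 ± 0.76, with 138, 210, 70.1 and 56.3 FPKM in HSO and 7.36, 44.9, 144, 32.5 and 93.3 in LSO. ND4 followed with 1.09 ± 0.82. ND1 was at 0.20 ± 1.31, and ATP6 had the widest error, at 0.44 ± 1.49. The median was -0.049 without HSO replicate 3, 0.09 without LSO replicate 1 and 0.29 without LSO replicate 2. It was 1.202 without HSO replicate 5, 1.11 without LSO replicate 3, 1.02 without HSO replicate 1 and 0.89 without LSO replicate 5. Without LSO replicate 3, 1 transcript passed before adjustment.

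**Figure D4:**
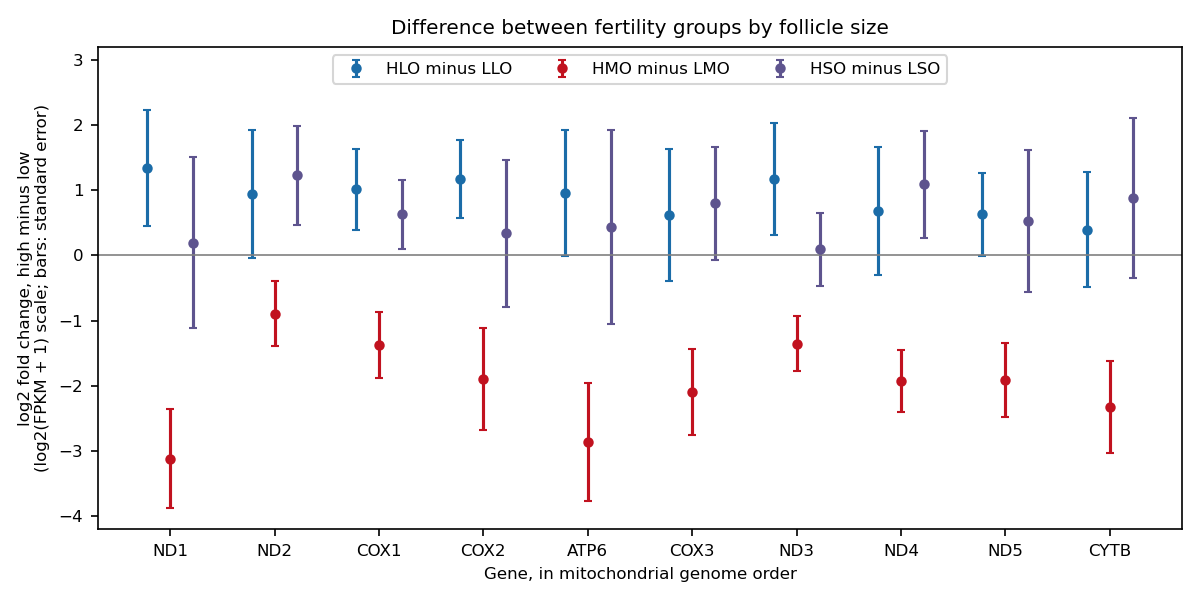
Log2 fold change of the high against the low fertility population for each of the 10 transcripts (x axis, genome order), on the log2(FPKM + 1) scale with the standard error, in large (blue), medium (red) and small (purple) follicles. The medium follicle values lie from -3.12 to -0.90, and all others are above 0.

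Over all follicle sizes no common difference between the populations was detected. The fit with follicle size as a covariate gave a median of -0.20, with 8 of the 10 below 0 and ND2 (0.39 ± 0.51) and COX1 (0.07 ± 0.38) above, and none passed the limma test before or after adjustment, against 9.99% and 0.0103% of all 9692 genes tested. Whether the fertility difference itself differed between follicle sizes was tested by an interaction, which used all samples of the comparisons above. By limma none passed after adjustment, as for 0% of all genes, with 0.451 for COX1 as the smallest adjusted p. Before adjustment 4 of 10 passed, COX1, ND1, ND4 and ND3, against 7.89% of all genes. The fertility difference of ND1 in medium follicles was 4.47 log2 units below that in large follicles (a change of -4.47), that of COX1 was at -2.40, that of ND4 at -2.61 and that of ND3 at -2.53. Leaving out LSO replicate 3 raised the count to 9, and leaving out HSO replicate 5 or LMO replicate 4 raised it to 8. It was 1 when LMO replicate 3 was left out. It was 2 when HLO replicate 1 or 3, HMO replicate 4 or 5, or LSO replicate 1 or 2 was left out.

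By follicle size, mean log2 levels of the 10 were higher in small than in large follicles, again without passing the adjusted test. ND1 ranged from 0.552 to 187 FPKM with a median of 17.7 in the 10 large follicle samples, from 5.08 to 458 with a median of 19.1 in the 10 from medium follicles, and from 7.38 to 684 with a median of 138 in the 9 from small follicles. COX1, the catalytic subunit of complex IV, ranged from 0.392 to 23.7 (median 5.17) in large, 2.27 to 38.3 (median 9.18) in medium and 3.53 to 36.7 (median 18.6) in small follicles. The ranges of the 3 sizes overlapped for both. In the limma test over the sizes, with population as a covariate, none passed after adjustment (adjusted p = 0.99998 for each), as for 0% of all genes. Before adjustment 5 of 10 passed, COX1, COX3, COX2, ATP6 and ND1, against 1.66% of all genes, with log2 differences of small against large follicles of 1.54, 2.10, 1.90, 2.52 and 2.29. For ND2 the difference was 0.30 and for ND3 0.67. The count was 1 without HSO replicate 3, HSO replicate 4, LLO replicate 4 or LSO replicate 3, 2 without HLO replicate 5, LLO replicate 1, 3 or 5, or LSO replicate 4 or 5, and 3 without HLO replicate 4. It was 1 when samples were scaled by median-of-ratios factors and 3 with no filter on low values.

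The respiratory chain subunits encoded in the nucleus, which are made in the cytosol and imported, had a median of the opposite sign to the mitochondrial transcripts in medium follicles. They were counted as lines of the table, and a symbol can stand on more than 1 line, as NDUFA4 does on 5. Of 73 lines tested, the median log2 fold change of HMO against LMO was 0.38, against -1.92 for the 10. Before adjustment 7 lines were higher and 1 was lower in HMO, with none after it by limma. These were 11.0% of the list, near the 8.67% of all genes. NDUFA2 of complex I had 788 ± 212 FPKM in HMO and 455 ± 206 in LMO (SD, n = 5). ATP5J, a subunit of the ATP synthase, had 814 ± 337 and 399 ± 181. ATP5G2 had the smallest p of the list, with 27.3 ± 19.6 and 0.779 ± 0.656 FPKM, but this symbol and that of ATP5J each stand on 3 lines of the table, and their values are uncertain. In large follicles the median of 74 was 0.67, with 6 higher in HLO and none lower before adjustment, or 8.11% of the list against 4.14% of all genes. In small follicles the median of 74 was -0.07, with 1 higher and 3 lower in HSO, or 5.41% against 4.41%. The 10 mitochondrial transcripts summed to 0.00396 to 0.0141 of the nuclear list's FPKM in HMO and to 0.0179 to 0.117 in LMO.

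Of the genes that copy and transcribe the mitochondrial genome, 2 of 16 tested in medium follicles had an unadjusted p under 0.05, both with a lower level in HMO: TFB2M, a transcription factor of the mitochondrial promoters (1.10 ± 0.38 against 2.37 ± 0.91 FPKM), and POLG, the mitochondrial DNA polymerase (1.28 ± 0.21 against 2.06 ± 0.36), and the median was -0.0020. They were 12.5% of the list, against 8.67% of all genes. TFAM, which packs mitochondrial DNA, was at 3.09 ± 0.87 FPKM in HLO and 1.70 ± 0.90 in LLO, and no gene of the list passed in large or small follicles. Of the genes for processing and stability of mitochondrial RNA, none of 18 passed in medium and none of 17 in large follicles. In small follicles FASTKD1, an RNA-binding protein of mitochondria, passed before adjustment with 1.22 ± 0.62 FPKM in HSO and 0.417 ± 0.212 in LSO. PDE12, which removes poly(A) tails in mitochondria, did so with 0.531 ± 0.212 and 1.67 ± 1.12. They were 11.8% of the 17 tested, against 4.41% of all genes. None of either list passed after adjustment by limma.

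The genes outside the mitochondrial genome most like the 10 were found by Pearson's r with their mean log2 level over the 29 samples, a measure that is given as a description, since the samples fall into separate ranges. LVRN, an aminopeptidase, had the highest r, 0.75, with 0.23 within the 20 samples of low ND1 and 0.42 within the 9 of high ND1, at 0 to 3.64 FPKM. ANKRD44 followed with 0.65 (0.49 and 0.71) and SLC9A2, a sodium-proton exchanger, with 0.64 (0.68 and 0.54). SLC22A16, a carnitine carrier, had 0.62 (0.49 and 0.88) and GCSAML 0.62 (0.24 and 0.77). All 5 were low genes, at no more than 5.69 FPKM. A gene with no symbol, ENSCHIG00000017581, was named after its values were seen: its r was 0.67, and it was 15.0 to 54.7 FPKM in the 9 samples and 0 to 26.6 in the other 20, with 11 at 0. Within these its r was 0.85 and -0.19. The most opposite genes were MAFG (-0.68) and MB, the oxygen-binding protein myoglobin (-0.66), followed by LOC102189227 (-0.63), the histone gene HIST1H2AC (-0.61) and LOC102181663 (-0.60). MB was 4.71 to 29.3 FPKM in the 9 samples and 6.69 to 64.7 in the other 20, with r of -0.64 and -0.53 within them. The nuclear respiratory chain genes had a median r of -0.05 (78 genes), those for copying and transcription -0.03 (16) and those for RNA processing -0.16 (18), against -0.10 over 9679 genes.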

How the data were processed

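Oocyte RNA-seq of 29 samples in 6 groups was used. Starting from alignments to the goat genome, the authors retained uniquely matching reads having fewer than 5 mismatches, discarded duplicates (picard), and deposited FPKM per gene calculated by Cufflinks 2.2.1 on an Ensembl annotation. The aligner and genome build are not given in the sources used here, nor is the treatment of strand, and FPKM hold no counts, so no depth was derived from them. Removal of duplicates and of reads with several matches can lower abundant or repeated sequences. Column names were matched to sample titles, leaving out 1 column that had no sample.

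FPKM were tested as log2(FPKM + 1) with limma 3.58.1 (R 4.3.3, with trend), for genes exceeding 0.5 FPKM in 4 or more samples of the comparison, adjusted by Benjamini-Hochberg over all genes tested. The code was tested on simulated data. Fertility was compared within each follicle size, over all sizes, and as an interaction with size, and sizes were compared over all samples. The pathway lists were counted and not tested as sets, and the 4 genes with the smallest p of each list could be named. The 5 genes of highest and of lowest r with the 10 transcripts were named. The 10 transcripts and the lists were chosen with earlier results of these data known. Gene order was read from RefSeq (ARS 1.2).

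Alternatives were other pseudocounts (0.1 and 0.5), filters and scalings, a joint fit of all samples, a replicate block and each sample left out.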

Additional observations from a re-analysis of the deposited data

Results flagged for a closer look

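Within the groups, 60 sets of values (10 transcripts in 6 groups) were examined on the log2(FPKM + 1) scale for a highest or lowest sample that stood apart by Dixon's criterion, which chance alone exceeds in about 1 of 20 groups, and 4 were found. ND2 was 0.967 FPKM in LLO replicate 4 against 54.0 in the next lowest LLO sample, and COX3 was 2.95 against 72.5 in the same pair of ranks. COX1 was 3.53 FPKM in LSO replicate 1 and at least 15.1 in the other LSO samples. ND5 was 24.3 FPKM in HLO replicate 1 and at most 2.66 in the other HLO samples.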

How the results depend on the processing

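The counts of transcripts past an adjusted p of 0.05 were 0 in each comparison and stayed at 0 under other pseudocounts, filters and scalings, in the joint fit and with each sample left out. The exception was the replicate block, under which 3 passed for HMO against LMO (ND1 at a limma adjusted p of 0.0337, ND3 at 0.0377 and ND4 at 0.0467), as did 127 of all genes against 6 without it. In HLO against LLO 2 passed before adjustment under the block. No label says what the replicate numbers share. Deviations of same-numbered samples correlated at -0.51 to 0.74, above 0.1 in 10 of 14 pairs, and 7 of 14 high fertility samples correlated best with their own number. That is a hint of pairing from the data and not from the design, and the numbers were not taken to pair the samples because some pairs did not reach 0.1. For HMO against LMO the count before adjustment was 8 to 10 under the other settings and the direction never changed. With each sample left out in turn, the counts before adjustment were 0 to 1 in large, 7 to 9 in medium and 0 to 1 in small follicles, 1 to 7 over the sizes and 1 to 9 for the interaction, and the medians were 0.29 to 1.28, -2.38 to -1.56 and -0.049 to 1.202. Alternatives for the counts before adjustment over the sizes and for the interaction were chosen after seeing the data: the first was 3 with no filter and 1 with median-of-ratios factors, and the second was 2 with a pseudocount of 0.1, with no filter and with median-of-ratios factors, 3 with a pseudocount of 0.5, 5 under the block and 6 when scaled to nuclear genes. Of the fold changes of single transcripts, 26 turned sign, none past the threshold. Under the block HSO against LSO was at -0.15 for ND1, -0.13 for COX2 and -0.057 for ATP6, and ND3 was at -0.00077 when scaled to nuclear genes. With a sample left out, HLO against LLO ranged over -0.024 to 0.89 for ND5, -0.29 to 0.81 for CYTB, -0.13 to 1.34 for ND2, -0.39 to 0.99 for COX3 and -0.27 to 1.24 for ND4. HSO against LSO ranged over -0.74 to 1.01 for ND1, -0.52 to 1.08 for COX2, -0.56 to 1.32 for ATP6, -0.31 to 0.41 for ND3 and -0.29 to 1.19 for ND5. The cause was not tested. Genes past an unadjusted p of 0.05 among all tested numbered 345, 727 and 369 in large, medium and small follicles and 609, 1302 and 743 with no filter, which tests more genes. Under the block they numbered 684, 1376 and 788, and in the joint fit 1024 in large follicles. Over the sizes they numbered 161, with 364 under no filter and 277 under the block, and for the interaction 765, with 1197 and 1405. Over both populations they numbered 968, with 1461 under the block. After adjustment the 6 genes of medium follicles became 0 with no filter, 1 when scaled to nuclear genes, 13 with median-of-ratios factors and 3 in the joint fit. The 1 gene of small follicles became 2 with a pseudocount of 0.1 and 0 under the block and in the joint fit. The single gene over both populations was lost with no filter and with median-of-ratios factors. Of 0 genes for the interaction, 70 passed under the block and 2 with median-of-ratios factors, and of 0 in large follicles, 1 under the block.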
